A study of Homo sapiens with 24 samples.

Results

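The effect of 1 µM G-1 on gene expression in U251 cells was compared between 24 h and 72 h of exposure, to learn which transcript changes grew, faded or reversed with time. U251 is an established human glioblastoma cell line, and G-1 is a synthetic agonist of the G protein-coupled estrogen receptor, GPER1. The cells were kept in steroid-deprived medium for 24 h and then exposed to 1 µM G-1 or to the vehicle DMSO for 24 h or 72 h, with 4 independent biological replicates in each of the 4 groups. Total RNA of each replicate was labelled with Cy3 and hybridised to 1 Agilent microarray, so 16 of the 24 arrays of the series carry this comparison. The other 8 arrays came from cells exposed to a lower dose, the IC50 of G-1, for the same durations. The arrays were chosen by the treatment and duration in their titles. All groups share 1 cell line, so the values describe that line alone.

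Treatment with an agonist for days can engage several layers of transcription in turn. Early after exposure, cells adjust fast feedback circuits such as the sterol-sensing SREBP pathway and the dual-specificity phosphatases that damp ERK signalling, whereas secretory programs, cell identity genes and the biosynthetic machinery commonly change later. Glioblastoma lines keep part of the astroglial program, with GFAP as its classical intermediate filament, and can secrete chemokines under the control of NF-kappaB and AP-1 factors.

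Duration dependence was measured as an interaction, that is the difference between G-1 and DMSO at 72 h minus the same difference at 24 h, on the log2 scale. All levels below are log2 signals relative to the 75th percentile of their array, and levels are compared only within 1 probe. The third slide held all 8 arrays of 1 µM G-1 and was read in another scanning session than the first and second slides, over which the DMSO arrays were spread. An offset of the third slide that is the same at both durations cancels in the interaction. It does not cancel in the effect against DMSO at a single duration, where slide and treatment cannot be told apart. Spots well above background made up 41.1% to 44.5% of an array on the first 2 slides and 38.0% to 40.7% on the third. Replicates of a group correlated between 0.990 and 0.996. Of 58118 probes with a value on all arrays, 22970 representing 17927 genes or unnamed transcripts were tested. Of the 11 astroglial markers listed for the labelled cells, 9 could be tested, each detected well above background in every one of the 16 arrays. Fewer cells of a kind and less RNA per cell cannot be told apart in these bulk samples.

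The effect of 1 µM G-1 differed between 72 h and 24 h for 1303 of the 17927 genes at an adjusted p under 0.05 and a difference above 2-fold (7.27%, limma with Benjamini-Hochberg adjustment). The difference was upward for 515 genes (2.87%) and downward for 788 (4.4%). By the effects at each duration, 1228 of the 1303 genes were grown, which means that the 72 h effect was the larger and passed the threshold. Only 30 had faded, with the 24 h effect the larger, 37 had reversed sign with both effects past the threshold, and 8 met none of these definitions. Blocking on the replicate number inside each duration gave 72 reversed genes in place of 37. Among the grown genes, 298 already passed an adjusted p of 0.05 in the same direction at 24 h and 930 did not. The 24 h effect itself called 601 genes (3.35%), of which 131 were higher (0.731%) and 470 lower (2.62%), and the 72 h effect called 2867 (16%), of which 1053 were higher (5.87%) and 1814 lower (10.1%). These counts share arrays with the interaction and are given side by side. Genes called higher at 24 h had a median log2 effect of 1.197 at 24 h and 1.38 at 72 h, and for genes called lower the medians were -1.30 and -1.22. Both sets were chosen by their 24 h effect, which enlarges the 24 h medians, so these pairs do not measure a course over time. Dim probes weighed on the count, since 38.9% of the called probes were among the dimmest 20% of those tested. Counting only the probes detected well above background in all 16 arrays, 774 genes were called, with 298 higher and 476 lower.

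**Figure D1:**
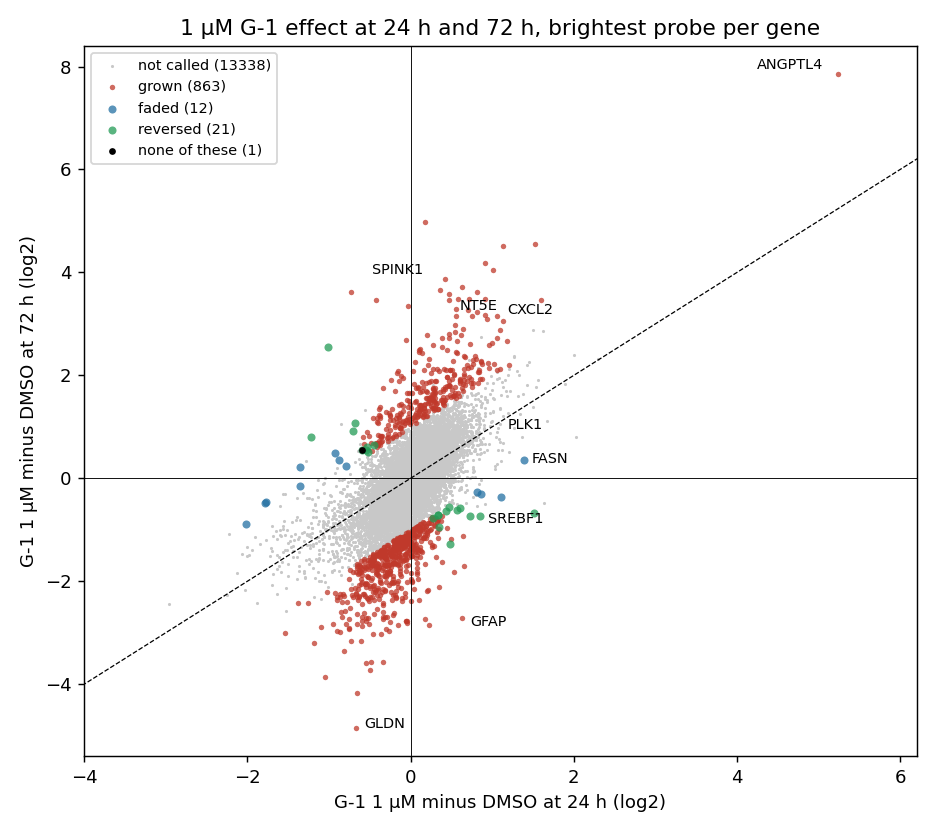
Log2 difference between 1 µM G-1 and DMSO at 24 h (horizontal axis) and at 72 h (vertical axis), 1 point per gene with a symbol by its brightest probe, with n = 4 arrays a group. The dashed line marks equal effects, and the 863 grown genes spread far above and below it at small 24 h effects, whereas 12 genes had faded and 21 had reversed.

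An interaction can arise in the treated cells or in the vehicle controls, so each was followed from 24 h to 72 h. In 1 µM G-1 the change from 24 h to 72 h called 1046 genes (5.83%), with 360 higher (2.01%) and 686 lower (3.83%) at 72 h. The same comparison in DMSO called 33 genes (0.184%). Of the 1303 genes whose effect depended on duration, 1203 (92.3%) had the larger change in the G-1 arrays, and 127 had a change in DMSO at an adjusted p under 0.05. A2M, the protease inhibitor alpha-2-macroglobulin, was one where the controls moved strongly: its level rose in DMSO by 1.41 (adjusted p = 0.00344) and fell in G-1, with a change of -1.28, which gave an interaction of -2.69 ± 0.35 (SE, adjusted p = 9.04e-06).

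**Figure D2:**
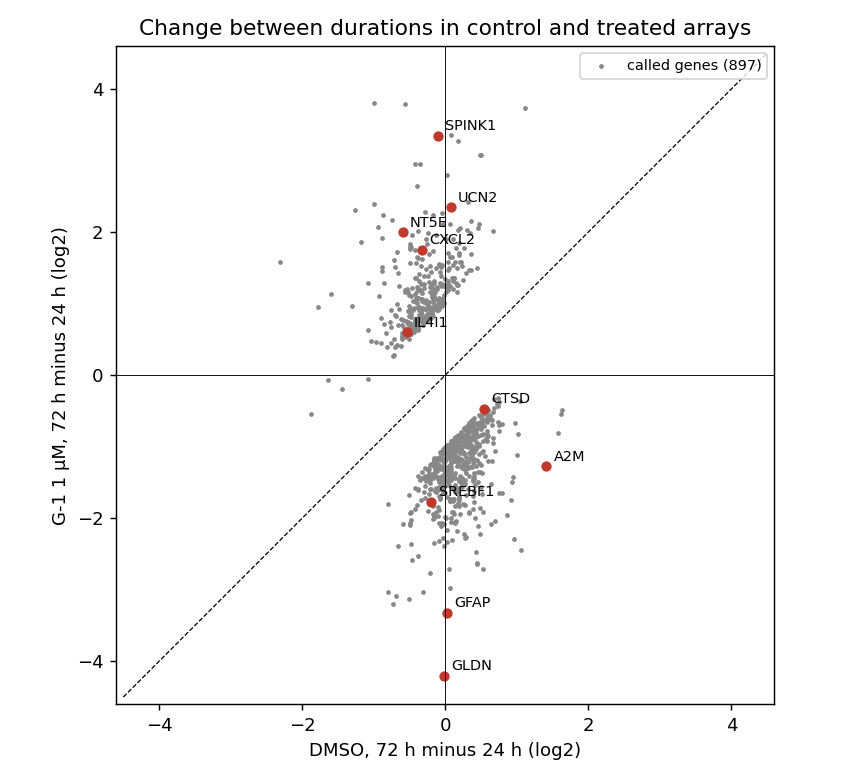
Log2 change from 24 h to 72 h in DMSO (horizontal axis) and in 1 µM G-1 (vertical axis) for the 897 of 14235 genes with a symbol (6.3%) whose brightest probe was called by the interaction. Most points lie in a narrow band around 0 in DMSO and spread along the vertical axis, and the empty band along the diagonal is set by the 2-fold threshold.

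The change with time was also compared with that at the lower dose. The change from 24 h to 72 h differed between 1 µM and the IC50 dose for 1044 genes (5.82%), 417 higher (2.33%) and 627 lower (3.5%). DMSO arrays do not enter this contrast, but it shares the G-1 1 µM arrays with the interaction. At the IC50 dose, the effect against DMSO did not differ between the durations for any gene at these thresholds with limma. An unadjusted p under 0.05 was reached by 939 of the 22970 probes, a share below the 0.05 that would arise by chance. This share cannot show that no gene differed. At under 2-fold, the IC50 interactions of SREBF1 (-0.85, limma adjusted p = 0.0162) and ACACA (-0.67, adjusted p = 0.00969) passed an adjusted p of 0.05.

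Inflammatory cytokines, the secreted signals and feedback genes of the NF-kappaB response, were among the programs that grew. Of the 11 tested members, 7 had a higher effect at 72 h than at 24 h at an adjusted p under 0.05 and none had a lower one, where 16.4% of all genes with a symbol were higher and 17.7% lower. Their median interaction was 1.48 against 0.00 for all genes, and their median effect was 0.41 at 24 h and 2.40 at 72 h. Their median change from 24 h to 72 h was 1.03 in G-1 and -0.39 in DMSO, so part of the interaction lay in the controls. The median interaction was 0.81 with another background correction (normexp) and 0.72 over the members well above background on all 24 arrays, which leaves out IL1B and CSF2. CXCL2, a neutrophil-attracting chemokine, had levels of 1.26, 1.51, 1.24 and 1.08 in DMSO at 24 h and 0.95, 1.098, 0.86 and 0.84 in DMSO at 72 h. With G-1 the 4 replicates gave 2.41, 2.59, 2.24 and 2.08 at 24 h and 4.10, 3.99, 4.20 and 4.03 at 72 h. The groups of G-1 did not overlap with each other or with DMSO, and the effect rose from 1.06 to 3.14 (interaction 2.08 ± 0.19, SE, n = 4 arrays a group, limma adjusted p = 1.55e-07). A second CXCL2 probe gave 2.33. Its neighbour and close relative CXCL3 moved alike, from 0.91 to 3.18 (interaction 2.27 ± 0.26, adjusted p = 1.97e-06). IL11, a cytokine of the IL6 family, went from 1.096 to 2.88 (interaction 1.78, adjusted p = 8.16e-07).

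Other members of the cytokine list, described here after their values were seen, did not follow 1 course. TNFAIP3, the ubiquitin-editing inhibitor of NF-kappaB signalling, rose late, with an effect of 0.20 at 24 h (adjusted p = 0.287) and 1.68 at 72 h (interaction 1.48 ± 0.20, adjusted p = 1.11e-05). IL6 had effects of -0.01 and 0.71 (interaction 0.72, adjusted p = 0.00103). LIF, another IL6-family cytokine, was already high at 24 h, with effects of 2.00 and 2.40, and its interaction of 0.40 had an interval of -0.54 to 1.34 (adjusted p = 0.538). NFKBIA, which encodes the inhibitor IkappaB-alpha, was lower than in DMSO at both durations. Its DMSO arrays gave 5.83, 5.62, 5.82 and 5.91 at 24 h and 5.38, 5.57, 5.29 and 5.72 at 72 h, and its G-1 arrays 5.17, 5.20, 5.28 and 5.34 and 5.01, 4.79, 4.99 and 4.99. The interaction was 0.00 with a 95% interval of -0.30 to 0.30 (adjusted p = 0.999).

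The promoters of CXCL2, CXCL3, TNFAIP3 and NFKBIA are shown because they share a short sequence and yet these genes differed in their course. They are RefSeq sequences on GRCh38.p14 from 250 bases before to 50 bases after the start of the gene, written 5′ to 3′ on the strand of the gene, and the capitals mark matches on either strand to the kappaB consensus motif, to which NF-kappaB dimers bind. CXCL2 lies on the minus strand (chr4:74099146-74099445) and so do CXCL3 (chr4:74038640-74038939) and NFKBIA (chr14:35404700-35404999), whereas TNFAIP3 lies on the plus strand (chr6:137867009-137867308).
CXCL2: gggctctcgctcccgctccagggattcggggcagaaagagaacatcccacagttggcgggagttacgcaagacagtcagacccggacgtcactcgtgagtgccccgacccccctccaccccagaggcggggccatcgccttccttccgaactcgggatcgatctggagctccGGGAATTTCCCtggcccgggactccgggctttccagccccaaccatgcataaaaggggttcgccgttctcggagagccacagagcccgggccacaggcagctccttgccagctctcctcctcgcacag
CXCL3: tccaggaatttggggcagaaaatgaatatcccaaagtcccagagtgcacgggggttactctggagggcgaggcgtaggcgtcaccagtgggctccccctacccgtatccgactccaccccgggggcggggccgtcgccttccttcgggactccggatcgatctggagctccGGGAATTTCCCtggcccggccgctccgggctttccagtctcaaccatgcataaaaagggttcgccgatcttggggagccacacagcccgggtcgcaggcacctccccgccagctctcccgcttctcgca
TNFAIP3: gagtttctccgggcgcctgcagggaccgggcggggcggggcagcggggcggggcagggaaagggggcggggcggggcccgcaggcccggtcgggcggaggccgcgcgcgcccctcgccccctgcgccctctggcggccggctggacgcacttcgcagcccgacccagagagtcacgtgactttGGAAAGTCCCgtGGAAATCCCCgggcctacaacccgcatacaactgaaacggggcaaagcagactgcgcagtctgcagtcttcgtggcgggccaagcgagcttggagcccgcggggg
NFKBIA: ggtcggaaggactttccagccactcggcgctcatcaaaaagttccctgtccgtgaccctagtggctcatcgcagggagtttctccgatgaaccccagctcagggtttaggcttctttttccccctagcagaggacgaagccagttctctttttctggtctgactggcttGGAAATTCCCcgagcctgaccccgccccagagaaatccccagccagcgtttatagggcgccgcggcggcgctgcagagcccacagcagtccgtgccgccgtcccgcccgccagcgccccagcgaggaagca
In CXCL2 and CXCL3 the capitals begin 78 and 79 bases before the start, and there a match on each strand overlaps the other. TNFAIP3 held 2 matches, 67 and 55 bases before its start, and NFKBIA 1 match 81 bases before. The motif was found in 3619 of 27305 genes with a promoter entry (13.3%), in 16.8% of those tested here and in 5 of the 9 cytokine list genes with an entry (55.6%). A match is a description of the sequence and shows no binding.

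The largest upward interactions, among genes well above background on all 16 arrays, are described next. A ranking by the interaction favours small 24 h effects by construction. CXCL3, described above, belongs with these genes and had an effect of 0.91 at 24 h. SPINK1, a secreted trypsin inhibitor, gave -0.24, -0.09, -1.104 and -0.90 in DMSO and 0.09, 0.22, -0.47 and -0.46 in G-1 at 24 h. At 72 h DMSO gave -0.46, -0.41, -1.11 and -0.76 and G-1 gave 3.47, 3.38, 2.99 and 2.90. The groups overlapped at 24 h, and at 72 h every G-1 array was above every other array, with a 72 h effect of 14.7-fold (interaction 3.45 ± 0.34, SE, adjusted p = 3.61e-07). Its 24 h effect of 0.42 had an adjusted p of 0.185, and 0.00176 with the block on replicate number inside each duration. NT5E, the ecto-5′-nucleotidase CD73 that makes adenosine outside the cell, had an effect of 0.55 at 24 h and 3.15 at 72 h (interaction 2.59 ± 0.20, adjusted p = 2.84e-08). Part of this NT5E difference lay in the controls, whose level changed by -0.60 from 24 h to 72 h (adjusted p = 0.0229). A dimmer second NT5E probe had effects of 1.01 at 24 h (adjusted p = 0.00059) and 2.98 at 72 h, with an interaction of 1.97. The other genes that led this direction were XDH, xanthine dehydrogenase (2.56), the sperm protein gene SPANXB1 (2.43), which has near-identical copies that a probe may not tell apart, TMEM158 (2.32), UCN2, a peptide hormone of the corticotropin-releasing family (2.27), and the noncoding LINC02154 (2.21), all with an adjusted p of 3.70e-05 or less.

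**Figure D3:**
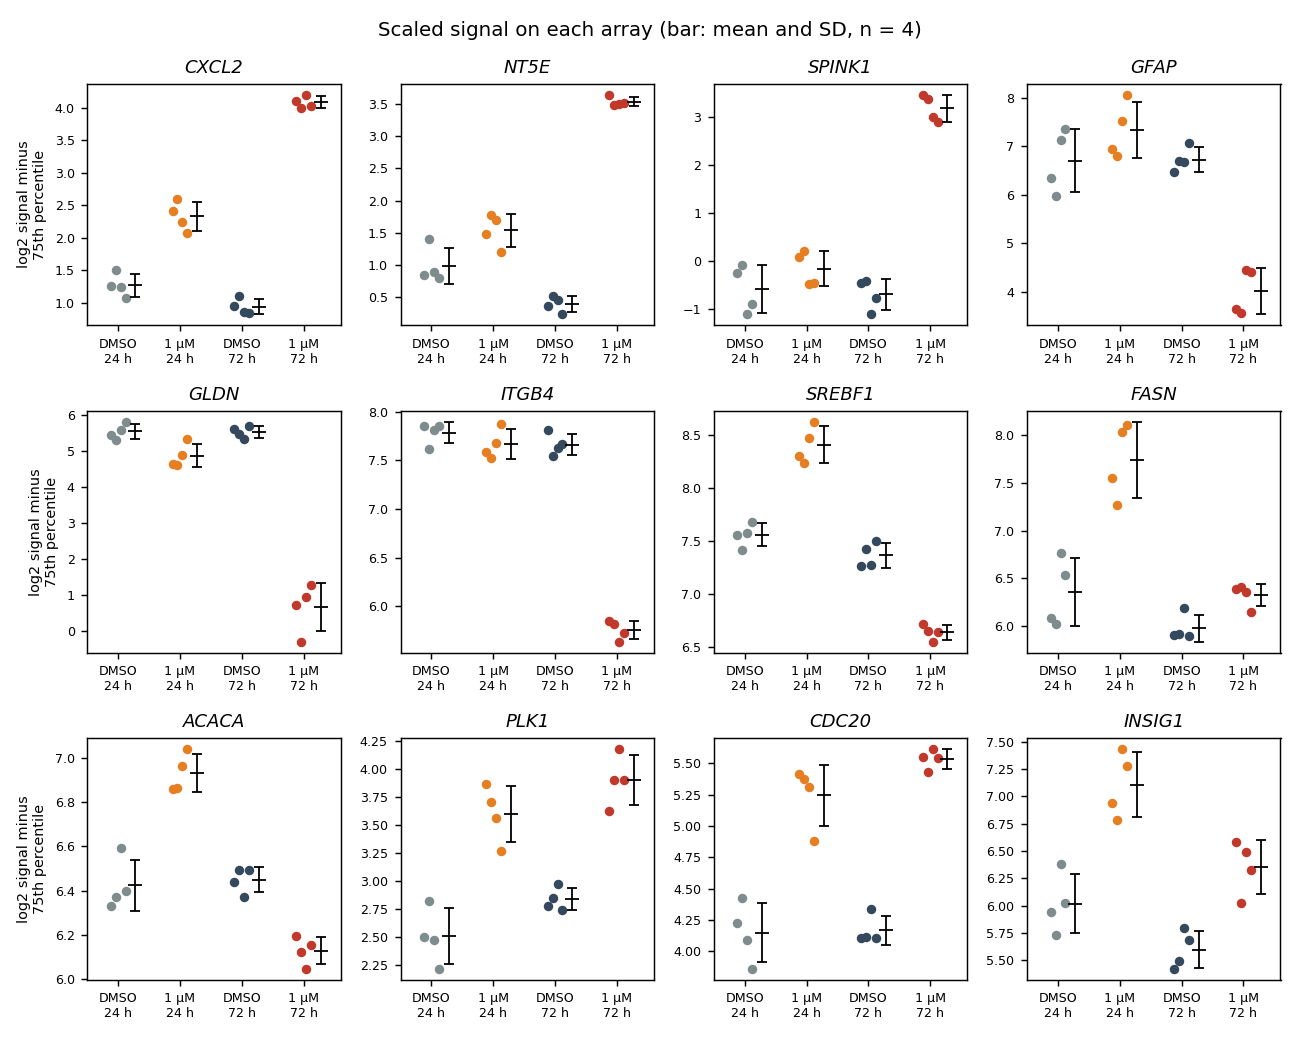
Log2 level of 12 genes on each of the 16 arrays, relative to the 75th percentile of the array, by group (DMSO 24 h, G-1 1 µM 24 h, DMSO 72 h, G-1 1 µM 72 h), with points for arrays and bars for the mean and SD (n = 4). CXCL2, NT5E and SPINK1 were highest in G-1 at 72 h, GFAP, GLDN and ITGB4 lowest there, SREBF1, FASN and ACACA stood highest in G-1 at 24 h, and PLK1, CDC20 and INSIG1 were higher in G-1 than in DMSO at both durations.

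The ERK feedback genes, phosphatases and adaptors that are induced by ERK and restrain it, were high at 24 h and higher at 72 h. Of 11 members, 9 were higher than in DMSO at 24 h and 11 at 72 h, where 20% and 35.2% of all genes were. The effect was larger at 72 h for 8 and smaller for none, where 16.4% of all genes with a symbol were higher and 17.7% lower. Their median effect went from 0.86 to 1.69, with a median interaction of 0.76, or 0.58 with the normexp background correction. DUSP5 and DUSP4, dual-specificity phosphatases that act on ERK, had interactions of 1.45 ± 0.20 (adjusted p = 1.95e-05) and 1.06 ± 0.22 (adjusted p = 8.64e-04), and SPRY2, a Sprouty adaptor, 0.76 ± 0.13 (adjusted p = 2.07e-04). The AP-1 and EGR list was mixed, with 3 of 13 members higher and 3 lower. In it, the growth factor-responsive MYC grew from 0.65 to 1.99 (interaction 1.33, adjusted p = 8.46e-05). FOSL2 was lower at both durations, with effects of -0.30 and -1.07 (interaction -0.77, adjusted p = 2.53e-05). JUND was higher at 24 h, by 0.61, and had an effect of -0.21 at 72 h (adjusted p = 0.0579, interaction -0.82).

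Among targets of TGF-beta and YAP, which govern matrix production and growth, 8 of 12 had a higher effect at 72 h and 1 a lower one, where 16.4% and 17.7% of all genes with a symbol did. The median interaction was 0.75, and the median change from 24 h to 72 h was 0.41 in G-1 and -0.34 in DMSO, so part of the interaction lay in the controls. The receptor kinase gene AXL had an interaction of 0.84 (adjusted p = 8.91e-05) and CCN2, connective tissue growth factor, 0.98 (adjusted p = 0.00288). The level of CCN2 in DMSO declined from 24 h to 72 h, with a change of -0.63 (adjusted p = 0.0419), and its change in G-1 was 0.36 (adjusted p = 0.0881).

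Effects on many genes that make ribosomes were larger at 72 h, by small steps. Of 21 ribosome biogenesis genes, which make and process ribosomal RNA, 15 had a higher effect at 72 h and none a lower one, all under 2-fold, with a median interaction of 0.41. DKC1, the pseudouridine synthase of small nucleolar particles, gave 0.96 ± 0.16 (adjusted p = 1.00e-04), with a change of -0.41 in DMSO between 24 h and 72 h (adjusted p = 0.0474). The interaction of GNL3, nucleostemin, was 0.80 ± 0.12 (adjusted p = 6.11e-05) and that of POLR1B, a subunit of RNA polymerase I, 0.58 ± 0.10 (adjusted p = 0.00011). DNA replication genes had 10 of 34 members higher and none lower, with a median of 0.24, where 16.4% of all genes with a symbol were higher and 17.7% lower. Among them were POLE2 (0.89), a subunit of polymerase epsilon, ORC6 (0.88), of the origin recognition complex, and RFC4 (0.71), of the clamp loader.

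Among genes well above background on all 16 arrays, the downward interactions were led by GLDN, gliomedin, an adhesion protein of myelinated nerves. Its levels were 5.43, 5.31, 5.59 and 5.80 in DMSO and 4.64, 4.61, 4.88 and 5.33 in G-1 at 24 h. At 72 h the DMSO arrays gave 5.60, 5.47, 5.31 and 5.70 and the G-1 arrays 0.73, -0.30, 0.94 and 1.27. The groups overlapped slightly at 24 h, whereas all 4 G-1 arrays at 72 h lay below all others, and the transcript was 29-fold lower than in DMSO (interaction -4.19 ± 0.34, SE, adjusted p = 5.22e-08). Other leading genes were ST6GALNAC2, a sialyltransferase (-2.71), SLC38A3, a glutamine transporter (-2.71), SEMA5B, a semaphorin (-2.63), LDLRAD4, an inhibitor of TGF-beta signalling (-2.57), and C20orf141 (-2.77), each at an adjusted p of 0.00299 or less. For SLC38A3 the DMSO level rose by 0.49 over the same time (adjusted p = 0.0428). Of its other 3 probes, 2 gave -2.09 and -2.40 and 1 gave 0.11 (adjusted p = 0.902), with effects of -1.21 and -1.10 at the 2 durations.

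The astroglial identity genes had lower levels at 72 h than in DMSO for most tested members, with GFAP the most affected. GFAP, the intermediate filament of astrocytes, had levels of 6.34, 5.98, 7.14 and 7.35 in DMSO and 6.95, 6.80, 7.52 and 8.06 in G-1 at 24 h. At 72 h DMSO gave 6.46, 6.70, 6.67 and 7.07 and G-1 gave 3.65, 3.56, 4.44 and 4.41. Every G-1 array at 72 h lay below every other array, and the effect went from 0.63 (adjusted p = 0.131) to -2.71 (interaction -3.35 ± 0.44, adjusted p = 1.16e-05). At 24 h each G-1 array was above the DMSO array of its replicate number, and with the block on replicate number inside each duration the 24 h effect passed too (adjusted p = 0.00773), which makes GFAP a reversed gene under that fit. The other 2 GFAP probes had interactions of -3.16 and -3.39. S100B, a calcium-binding protein of astrocytes, gave -1.75 ± 0.29 (adjusted p = 1.04e-04). Of the 9 tested markers, 4 had a lower effect at 72 h and none a higher one, where 17.7% of all genes with a symbol were lower and 16.4% higher. Their median interaction was -0.36, and at 72 h 7 were lower than in DMSO, as were 31% of all genes.

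Several lysosomal and matrix genes had a lower effect at 72 h as well. In the lysosome and autophagy list, 10 of 21 members had a lower effect at 72 h and 1 a higher one, with a median interaction of -0.31, or -0.20 with the normexp background correction, where 17.7% of all genes with a symbol were lower and 16.4% higher. GAA, acid alpha-glucosidase, had effects of -0.31 and -1.53 (interaction -1.22 ± 0.11, adjusted p = 1.74e-07), with a rise of 0.37 in DMSO between 24 h and 72 h (adjusted p = 0.0145). CTSD, cathepsin D, gave -1.01 ± 0.15 (adjusted p = 5.07e-05), with a rise of 0.54 in DMSO between 24 h and 72 h (adjusted p = 0.0099), and the hexosaminidase subunit gene HEXA, named after its values were seen, -0.83 (adjusted p = 1.22e-04). All 6 tested metallothioneins, small zinc- and copper-binding proteins with near-identical sequences that probes may not tell apart, had a lower effect at 72 h, from -0.33 to -1.35 for MT1F, by the brightest probe of each, and none of these probes passed the test at 24 h. A dimmer second probe of MT1M was already lower at 24 h, with effects of -1.22 (adjusted p = 0.00153) and -2.14 and an interaction of -0.92 (adjusted p = 0.0577).

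Among collagens, 7 of 12 had a lower effect at 72 h and 1, COL13A1, a higher one (1.19 ± 0.23, adjusted p = 4.90e-04). COL18A1, the source of endostatin, gave -0.52 (adjusted p = 3.38e-04). The integrin and laminin list had 8 of 23 lower and 1 higher, against 17.7% and 16.4% of all genes with a symbol, and its median interaction was -0.07. ITGB4, the integrin beta-4 chain of hemidesmosomes, gave DMSO levels of 7.86, 7.62, 7.82 and 7.85 at 24 h and 7.81, 7.55, 7.63 and 7.67 at 72 h, and G-1 levels of 7.59, 7.53, 7.68 and 7.88 and 5.85, 5.81, 5.64 and 5.73. The 72 h G-1 arrays were the lowest, and the others overlapped (interaction -1.79 ± 0.12, adjusted p = 7.97e-09). The laminin beta-2 chain gene LAMB2 fell late (interaction -0.95 ± 0.12, adjusted p = 5.92e-06).

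The lists of growth control and death genes were small or mixed. The CDK inhibitors CDKN1B and CDKN1C, which hold cells before S phase, had interactions of -0.75 ± 0.13 (adjusted p = 2.59e-04) and -0.74 ± 0.16 (adjusted p = 0.00164), and 2 of 5 list members were lower. The p53 target list had 5 of 17 members in each direction, from the antiproliferative BTG2 (-1.87 ± 0.15, adjusted p = 5.22e-08) to the nuclease gene AEN (1.105 ± 0.20, adjusted p = 2.90e-04). In the BCL2 family, 3 of 13 were higher and 2 lower, close to the 16.4% and 17.7% of all genes with a symbol. The pro-apoptotic PMAIP1, or NOXA, grew from 0.59 to 1.60 (interaction 1.01, adjusted p = 8.82e-05) and HRK from 0.47 to 1.81 (1.34, adjusted p = 1.59e-04). BMF, also pro-apoptotic, was lower at both durations, with effects of -1.25 and -2.42 (interaction -1.16, adjusted p = 2.98e-05).

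Oxidative stress targets of NRF2 moved in both directions. The heme-degrading HMOX1 rose late, from 0.12 to 1.42 (interaction 1.30 ± 0.17, adjusted p = 1.21e-05). Of the 12 members, 2 had a higher and 5 a lower effect at 72 h, where 16.4% and 17.7% of all genes with a symbol did. The share of higher members was thus close to that of all genes.

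Fatty acid synthesis genes were higher early, and several then faded or reversed. SREBF1 encodes SREBP-1, the transcription factor of fatty acid synthesis. In DMSO its levels were 7.56, 7.42, 7.58 and 7.68 at 24 h and 7.26, 7.42, 7.28 and 7.50 at 72 h. In G-1 they were 8.31, 8.24, 8.47 and 8.63 at 24 h and 6.72, 6.65, 6.55 and 6.64 at 72 h. The G-1 arrays were above all DMSO arrays at 24 h and below all of them at 72 h, and the effect went from 0.85 (adjusted p = 4.42e-06) to -0.73 (adjusted p = 6.45e-07), with an interaction of -1.58 ± 0.13 (adjusted p = 5.22e-08). A dimmer second probe of SREBF1 gave an interaction of -0.29 (adjusted p = 0.223). Its effects of 0.13 at 24 h and -0.16 at 72 h did not pass (adjusted p = 0.455 and 0.262).

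The SREBP-1 target FASN, fatty acid synthase, had levels of 6.09, 6.03, 6.76 and 6.53 in DMSO and 7.55, 7.27, 8.04 and 8.11 in G-1 at 24 h. At 72 h these were 5.91, 5.92, 6.19 and 5.90 and 6.39, 6.41, 6.35 and 6.15. The groups did not overlap at 24 h but did at 72 h, where the effect had gone from 1.39 to 0.35 (interaction -1.04 ± 0.26, adjusted p = 0.00442). ACACA, acetyl-CoA carboxylase, reversed from 0.51 to -0.32 by its brighter probe (interaction -0.83 ± 0.09, adjusted p = 1.75e-06). Its dim probe gave -0.44 (adjusted p = 0.0531) and did not reverse, with effects of 0.62 at 24 h and 0.19 at 72 h (adjusted p = 0.177). The fatty acid desaturase FADS1 faded from 1.06 to 0.28 (-0.78, adjusted p = 0.0033), as did the phospholipid-remodelling LXR target LPCAT3, from 0.78 to 0.15 (-0.63, adjusted p = 8.48e-06). By these probes ACACA, FADS1 and LPCAT3 were under 2-fold in their interaction and are not among the 37 reversed and 30 faded genes counted. Of 11 fatty acid synthesis genes, 5 had a lower effect at 72 h and none a higher one, with medians of 0.75 at 24 h and 0.28 at 72 h. Among LXR targets 3 of 7 had a lower effect and none a higher one. Of all genes with a symbol, 17.7% were lower and 16.4% higher. At the IC50 dose, which lay on the other slides, SREBF1 had effects of 1.02 at 24 h and 0.17 at 72 h, FASN 1.16 and 0.12, FADS1 0.91 and 0.21, and ACACA 0.66 and -0.01. These IC50 values share the DMSO arrays. At the IC50 dose the interactions of SREBF1 (-0.85, adjusted p = 0.0162) and ACACA (-0.67, adjusted p = 0.00969) passed an adjusted p of 0.05 at under 2-fold, and those of FASN (-1.04, adjusted p = 0.415) and FADS1 (-0.70, adjusted p = 0.523) did not.

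Sterol synthesis is the other branch under SREBP control. Of its 20 genes, 14 were higher at 24 h and 13 at 72 h, where 20% and 35.2% of all genes with a symbol were. A lower effect at 72 h was found for 2 and a higher one for none, against 17.7% and 16.4% of all genes with a symbol. The median interaction was 0.06. TM7SF2, a sterol reductase, fell late, with effects of -0.07 and -1.56 (interaction -1.49 ± 0.18, adjusted p = 3.64e-06). INSIG1, the sterol-sensing brake of SREBP, was higher at both durations, by 1.09 and 0.76, with an interaction of -0.33 and an interval of -0.82 to 0.16 (adjusted p = 0.308). LSS, MVD and STARD4, of sterol synthesis and transport, had interactions of -0.58, -0.70 and -0.39 with adjusted p of 0.0963, 0.194 and 0.201. Blocking on the replicate number inside each duration, these adjusted p were 0.00017, 0.00159 and 0.0193, and LSS reached 0.0359 without DMSO 24 h replicate 3 and 0.0482 without G-1 1 µM 24 h replicate 2.

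Genes outside the lipid lists also reversed, of which the following are examples. ULK1 and CSF1R were under 2-fold in their interaction, so by these probes they are not among the 37 reversed genes counted. The sign of their effect at each duration rests on arrays of different slides, and only the interaction is free of a constant offset. AP3B2, a vesicle adaptor subunit, went from 0.48 to -1.27 (interaction -1.75 ± 0.17, adjusted p = 3.61e-07). The noncoding H1-10-AS1 went from 0.73 to -0.73 by its brightest probe. Its other 2 probes had smaller interactions of -0.65 and -0.67 and did not reverse, with effects of 0.58 and 0.53 at 24 h. Their 72 h effects were -0.06 and -0.14 (adjusted p = 0.612 and 0.277). Also first higher and then lower were the transcription factor EBF4, from 0.34 to -0.94, the noncoding GACAT2, from 0.60 to -0.58, RGS11, a regulator of G protein signalling, from 0.56 to -0.61, and ULK1, the kinase that starts autophagy, from 0.27 to -0.64. The opposite course, lower and then higher, was taken by SLAMF9 (-0.71 to 0.91), the amino acid oxidase gene IL4I1 (-0.54 to 0.60, with a DMSO change of -0.54, adjusted p = 0.0283), the sorting nexin SNX16 (-0.55 to 0.55), the phosphatase PTPRH (-0.53 to 0.50), IFI44, an interferon-induced gene (-0.45 to 0.65), and CSF1R, the receptor of colony-stimulating factor 1 (-0.42 to 0.49). In all of these genes each effect passed an adjusted p of 0.05 by the brightest probe, the weakest being RGS11 at 24 h (adjusted p = 0.04995). With the block on replicate number inside each duration, the 24 h effect of SNX16 no longer passed (adjusted p = 0.0602). The interaction also passed in each, between 0.00652 for SNX16 and 3.61e-07 for AP3B2. The faded genes named by their size outside the lipid lists were the junction protein gene AJAP1 (0.82 to -0.26), the GTPase gene GIMAP2 (-0.88 to 0.36) and the transcription factor IKZF2 (-0.79 to 0.23), and the call of AJAP1 was lost with the normexp background correction (interaction -0.19, adjusted p = 0.326).

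Mitotic genes were high at both durations. Of 21 mitotic kinases and APC/C genes, 16 were higher at 24 h and 17 at 72 h, where 20% and 35.2% of all genes with a symbol were. Only 2 had a higher and 1 a lower effect at 72 h, against 16.4% and 17.7% of all genes with a symbol. PLK1, a kinase of mitotic entry and spindle assembly, had DMSO levels of 2.50, 2.83, 2.48 and 2.22 at 24 h and 2.78, 2.85, 2.97 and 2.75 at 72 h. Its G-1 levels were 3.86, 3.70, 3.56 and 3.27 and 3.62, 3.90, 4.18 and 3.90. Every G-1 array was above every DMSO array, and the effects of 1.09 and 1.06 left an interaction of -0.03 with a 95% interval of -0.49 to 0.43 (adjusted p = 0.938). A much dimmer second PLK1 probe lay outside this interval, with effects of 0.89 and 1.70 and an interaction of 0.81 (adjusted p = 0.106). CDC20, the activator of the anaphase-promoting complex, gave an interaction of 0.27 with an interval of -0.11 to 0.65 (adjusted p = 0.275), and BORA, an activator of the Aurora A kinase, 0.29 with an interval of -0.09 to 0.67 (adjusted p = 0.248). AURKA, the Aurora A kinase itself, had 0.42 with 0.07 to 0.78 (adjusted p = 0.0658). With the block on replicate number inside each duration, the adjusted p were 0.0483, 0.0487 and 0.0253. AURKA also passed without DMSO 24 h replicate 4 (0.0366), without G-1 1 µM 24 h replicate 2 (0.0449) and without G-1 1 µM 72 h replicate 2 (0.0387). In the spindle checkpoint list, 5 of 18 had a higher effect at 72 h and none a lower one, against the same 16.4% and 17.7%. Among the 5 were ZWILCH (0.77, adjusted p = 3.85e-04) and MAD2L1 (0.74, adjusted p = 0.00381).

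The promoters of PLK1 (chr16:23678639-23678938, plus strand) and CDC20 (chr1:43358731-43359030, plus strand) are shown as examples of this early and lasting group, from RefSeq on GRCh38.p14, with capitals for the cell cycle homology letters TTTGAA on either strand.
PLK1: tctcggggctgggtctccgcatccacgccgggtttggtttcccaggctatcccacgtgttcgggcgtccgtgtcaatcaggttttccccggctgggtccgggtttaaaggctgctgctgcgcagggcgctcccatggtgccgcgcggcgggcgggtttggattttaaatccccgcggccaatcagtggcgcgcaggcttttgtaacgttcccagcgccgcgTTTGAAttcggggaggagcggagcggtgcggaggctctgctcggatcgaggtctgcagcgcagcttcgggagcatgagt
CDC20: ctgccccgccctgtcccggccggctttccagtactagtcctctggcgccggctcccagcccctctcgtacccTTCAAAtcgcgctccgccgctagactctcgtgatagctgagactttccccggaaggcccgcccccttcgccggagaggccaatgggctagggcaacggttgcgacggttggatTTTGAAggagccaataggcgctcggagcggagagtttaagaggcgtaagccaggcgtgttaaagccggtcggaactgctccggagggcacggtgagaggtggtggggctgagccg
The match lay 29 bases before the start of PLK1, and the 2 of CDC20 lay 178 and 65 bases before. Of all 27305 genes with a promoter entry 18.2% held these letters, as did 14% of the genes tested and 8 of the 15 mitotic kinase and APC/C genes with an entry (53.3%). The letters CCAAT, which often stand in promoters of cycling and lipid genes, were in 14 of the 15 (93.3%), in 13 of 15 sterol synthesis genes (86.7%) and in 8 of 10 fatty acid synthesis genes (80%), against 43.3% of the genes tested. The sterol element letters TCACNCCAC were in 1 of these 10 and in none of the 15 sterol genes, and 3 more motifs, the E-box CACGTG, the AP-1 letters TGACTCA and the metal element letters TGCGCNC or TGCACNC, were searched on both strands. These counts describe sequence and show no binding.

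**Figure D4:**
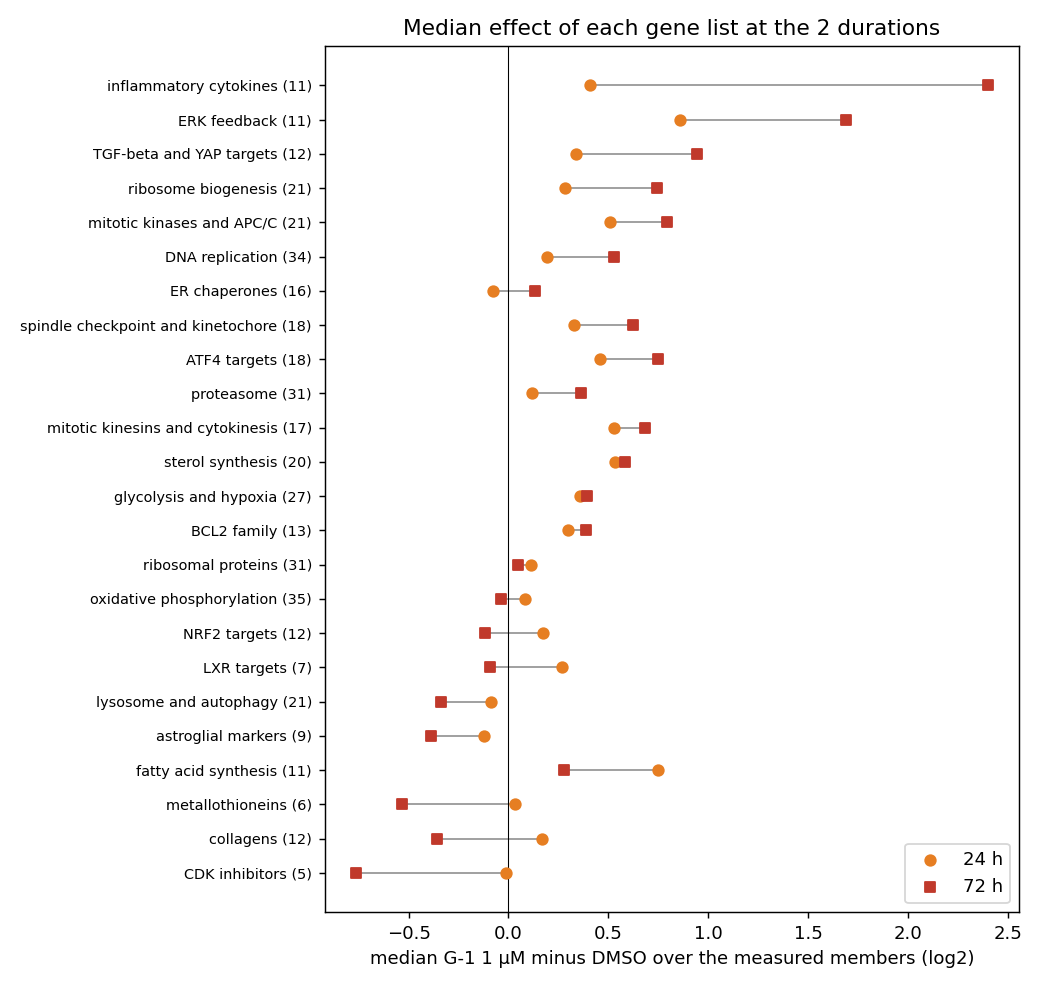
Median log2 difference between 1 µM G-1 and DMSO over the tested members of 24 gene lists at 24 h and at 72 h. Cytokines moved from 0.41 to 2.40, fatty acid synthesis from 0.75 to 0.28, and sterol synthesis stayed between 0.53 and 0.59.

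In the remaining lists the shares of members with a higher or a lower effect at 72 h are read against 16.4% and 17.7% of all genes with a symbol. The proteasome list had 8 of 31 members higher and none lower, with a median interaction of 0.16 and PSMD12 at 0.59 ± 0.09 (adjusted p = 3.59e-05). Of 18 ATF4 targets, the amino acid stress response, 6 had a higher effect at 72 h and 1 a lower one, with a median of 0.18 that ranged from 0.10 without DMSO 72 h replicate 4 to 0.26 without G-1 1 µM 72 h replicate 4. The counts were 5 higher and 1 lower of 16 ER chaperones, 2 higher and none lower of 27 glycolysis and hypoxia genes, 4 higher and 5 lower of 35 oxidative phosphorylation genes, and 4 in each direction of 21 interferon and antigen presentation genes. Of 31 ribosomal protein genes, none was higher and 1 lower, with a median of -0.07 that was 0.10 after quantile normalization and 0.09 with the normexp background correction.

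The receptor itself and the markers of other cell types were examined beside these results. GPER1 had an effect of 0.02 at 24 h and -0.80 at 72 h (interaction -0.83 ± 0.14, adjusted p = 1.20e-04). Of its 4 probes 3 were alike, and the dimmest gave 0.46 (adjusted p = 0.448). Of the 6 microglia and leukocyte markers, 2 were tested, CSF1R and CD14, and both had a higher effect at 72 h. Of the other lists, 1 of 5 tested neuron markers was higher, 1 of 3 oligodendrocyte markers was lower, 1 of 3 endothelial markers was higher and 1 lower, and the only tested epithelial marker was lower. Of all genes with a symbol, 16.4% were higher and 17.7% lower, and marker lists this small cannot be set apart from those shares. Several of the marker probes were near background in some groups, and their part in the results was not tested.

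ANGPTL4, a secreted inhibitor of lipoprotein lipase and a PPAR target, was not well above background on any DMSO array at 24 h, where the G-1 arrays stood at 1.98, 2.20, 0.48 and 0.80. That was at least 24.5-fold higher, taken against the higher of the lowest detected signal and the probe's own signal on each DMSO array. At 72 h the G-1 arrays gave 5.43, 5.39, 4.69 and 4.87, so that the change in G-1 from 24 h to 72 h was 3.73, measured above background on all 8 arrays. The fitted interaction of 2.62 rests on DMSO values near background and is not a measured size. MGLL, monoglyceride lipase, grew from 0.87 to 2.28 (interaction 1.42 ± 0.18, adjusted p = 9.30e-06). ACSBG1, an acyl-CoA synthetase, had levels of -0.95, -1.01, -1.73 and -1.01 in DMSO and -2.69, -3.78, -2.63 and -2.85 in G-1 at 72 h, of which only 1 G-1 array was well above background.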

How the data were processed

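For each array the authors deposited the intensity of every spot, background-subtracted and detrended by Agilent Feature Extraction (version 10.7.3.1 in the submitters' processing notes, 12.1.1.1 in the file headers), with quality flags, but not normalized between arrays. A log2 table by probe, which the authors deposited too, served as an alternative. After its probe medians were removed it differed from the values used here by a median of 0.00189 log2. Groups were taken from titles. The characteristics give another duration for G-1 1 µM 72 h and G-1 IC50 24 h, where titles and source names give the same one.

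Outlier spots were dropped, replicate spots of a probe were averaged on the log2 scale, and each array was set to its own 75th percentile. A probe was tested if all 4 arrays of some group detected it well above background, and saturation affected 0 spots. In R 4.3.3, limma 3.58.1 fitted 1 mean for each of the 6 groups across the 24 arrays. P-values were adjusted by Benjamini-Hochberg over 22970 probes, and the procedure was tested on simulated data. The number of arrays limits the precision, and intervals are 95% intervals of the fit. A gene was called by its most significant called probe, and is otherwise represented by its brightest. Symbols came from the RefSeq gene table, which named 35032 of 58201 probes. Of 90 genes described, 67 had a promoter entry.

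Named genes were the 8 with the largest interaction in each direction and class, the 3 members of each gene list with the smallest p, and genes the study names, other than those said to be chosen after their values were seen. Not all genes that the rule gives are described, and some are not reported here. The lists were written from general knowledge, and the members and lists were chosen with earlier results of these data known. List counts use an adjusted p under 0.05 at any fold. Replicate numbers were tested for pairing by the correlation of the arrays' deviations from their group means. Between DMSO and 1 µM arrays of the same number it was 0.166 to 0.281 at 24 h and 0.0241 to 0.101 at 72 h. Over all 24 same-numbered pairs, across durations too, it ranged from -0.159 to 0.281. Over all probes a pairing was thus clear at 24 h only, and the block was kept as an alternative. Single genes could still follow the number across durations. In SPINK1 replicates 1 and 2 lay above 3 and 4 in all 4 groups, and in S100B below them. The fit reported ignores this. With the replicate block their interactions had limma adjusted p of 2.57e-11 and 1.87e-08. The alternatives covered normalization, background correction, dim probes, the deposited table, blocks for replicate and slide, the spread, thresholds, the probe of a gene, and each array left out in turn. Figures were drawn with matplotlib 3.10.9.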

Additional observations from a re-analysis of the deposited data

Results flagged for a closer look

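The contrast between durations called 1303 genes and that between doses 1044, each a tested difference between groups. Described genes whose effects passed an adjusted p of 0.05 with opposite signs at both durations had interactions of -1.576 for SREBF1, -0.8295 for ACACA, -0.906 for ULK1, -1.751 for AP3B2, 1.615 for SLAMF9, -1.453 for H1-10-AS1 and -1.285 for EBF4. Further values were -1.179 for GACAT2, -1.177 for RGS11, 1.138 for IL4I1, 1.093 for SNX16, 1.028 for PTPRH, 1.099 for IFI44 and 0.9083 for CSF1R.

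A single array stood far from the other 3 of its group in 23 of 360 combinations of a described gene and a group, where about 1 in 20, or 18, would arise by chance. In DMSO at 24 h these were replicate 2 for NT5E (1.411), CCN2 (4.596) and ORC6 (3.505), all the highest, replicate 3 for STARD4 (1.904, highest) and CDKN1C (1.899, lowest), replicate 4 for AXL (6.331, lowest) and replicate 1 for LPCAT3 (4.666, lowest). In DMSO at 72 h they were replicate 3 for FASN (6.189, highest), CDC20 (4.336, highest) and ACSBG1 (-1.731, lowest), replicate 1 for SLAMF9 (-0.7043, highest), and replicate 2 for GIMAP2 (-0.8928) and IKZF2 (-1.284), both the highest.

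In G-1 1 µM at 24 h, replicate 2 was the highest for LINC02154 (0.4215) and replicate 1 the lowest for IFI44 (2.866). In G-1 1 µM at 72 h, replicate 1 was the highest for NT5E (3.646) and the lowest for LAMB2 (6.133) and EBF4 (1.648), and replicate 3 the highest for DUSP5 (1.868). Replicate 2 of this group was the lowest for SPRY2 (3.86), RFC4 (6.018), PMAIP1 (4.562) and NFKBIA (4.787). Of these genes, those with an interaction at an adjusted p under 0.05 kept it without the array named.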

How the results depend on the processing

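The number of genes whose 1 µM effect differed between the durations was 1303, with 515 higher, 788 lower, 1228 grown, 30 faded and 37 reversed. The dose contrast called 1044 genes, and the change from 24 h to 72 h called 1046 in G-1 and 33 in DMSO. In the same order, the counts were 3384, 1519, 1865, 3139, 102, 105, 2715, 2972 and 160 at a fold threshold of 1.5, and 6177, 3057, 3120, 5621, 283, 141, 5058, 7765 and 610 with no fold threshold. With the normexp background correction they were 408, 147, 261, 398, 2, 8, 314, 296 and 5. Restricted to probes that every one of the 24 arrays detected, they were 776, 300, 476, 745, 5, 26, 611, 554 and 8. Without a filter on dim probes 50 genes had faded. With the 50th percentile 22 had reversed and the DMSO change called 17. The replicate block left 1325 genes called, with 58 reversed. The replicate block within each duration left 1334 called, with 72 reversed and 94 called by the DMSO change. No described interaction with an adjusted p under 0.05 lost it under this block, though the 24 h effect of SNX16 did not pass. With the slide as a block 1363 genes were called, of which 1263 were among the 1303. Leaving out 1 array at a time gave 1141 to 1409 genes, with 25 to 42 reversed. Of the 80 described genes with an interaction at an adjusted p under 0.05, 79 kept its direction and that threshold in every setting. These were the 28 settings that tested them, leave-one-out included, and AJAP1 lost it with normexp. The 2-fold threshold was not part of this check, and some interactions fell below it. In the setting where each was smallest, BMF had -0.48 and SNX16 0.40. ANGPTL4 and ACSBG1 were not tested where all 24 arrays had to detect the probe. The interactions of PLK1 and NFKBIA, both near 0, changed sign without passing. PLK1 was 0.0003272 with normexp, 0.002397 with the slide block and -0.139 to 0.0673 with 1 array left out. NFKBIA was 0.001367 with the 50th percentile, 9.191e-05 in the deposited table and -0.06729 to 0.07691 with 1 array left out. The median interaction of all genes moved by at most 0.01 log2 between scalings. The median effect moved more, from 0.04 with the 75th percentile to -0.04 with the 50th at 24 h, and from 0.03 to -0.05 at 72 h. The cause of these differences was not tested, except that a lower fold threshold and fewer probes change the counts by construction. Signal over background limits the dim probes, and for them the fitted sizes are uncertain.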
